A study of Mus musculus with 141 samples.

Results

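The genes described here are the mouse genes named Zfp and a number, a large set of zinc finger genes under a single name stem. They were taken from a table of 46517 genes by symbol, leaving out Zfp36 (an RNA-binding protein of another family), and by a mean of at least 3 counts per 1000000 reads (CPM) over all 141 libraries. Of 342 symbols of this form, 240 met the rule, 101 lay under the minimum and 1 was Zfp36. The members were chosen by their mean CPM, so high levels are part of the rule and are given only as a description. A member under 3 CPM at 0 h met the rule only through other groups, so the rule favoured its rise against 0 h. The nearest members above the minimum were Zfp125 (3.17 CPM), Zfp870 (3.16) and Zfp750 (3.13), and the nearest genes below it were Zfp59 (2.88), Zfp383 (2.82) and Zfp563 (2.76).

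RNA was sequenced from the naive CD4 T cells of C57BL/6 mice, sorted as CD4+CD25-CD44lo out of lymph nodes and spleen (ages and other alleles are not given in the sources used here), and from such cells after 0.5, 1, 2, 4, 6 and then 12, 24, 48 and finally 72 h on plates coated with antibodies to CD3 and CD28, which engage the T cell receptor and its co-receptor. Courses 1 to 3 (57 libraries) held a 0 h group, cells given no cytokines (called Th0 in the labels) and cells given IL6 and TGFβ, and courses 4 to 6 (84 libraries) held their own 0 h group and 3 cocktails of IL6 and TGFβ with IL1β, with IL21 or with both, cytokines used to drive cells toward the Th17 fate. Each of the 47 groups of 3 libraries is a culture condition at a single time, and the stimulating antibodies were shared by all groups but 0 h. The 0 h cells differ from all others in both stimulation and culture. The labels call the 3 libraries biological replicates, and the mice behind each course are not given in the sources used here.

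C2H2 zinc fingers are short loops held by a zinc ion through paired cysteines and histidines, and arrays of them read DNA sequence base by base. Many of these proteins carry a KRAB domain, which recruits the corepressor TRIM28 (KAP1), and TRIM28 in turn brings the histone methyltransferase SETDB1 and heterochromatin proteins that silence retroelements and imprinted loci. The KRAB genes arose by repeated local duplication and lie in clusters on a few chromosomes. Others in the family have no KRAB domain and act at promoters, on RNA, on ribosomes or in cell division.

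A search of the translated coding transcripts put 129 members in a class with both a KRAB domain and C2H2 fingers (median of 12 fingers, from 2 to 33) and 103 in a class with C2H2 fingers and no KRAB domain found (median of 8, from 1 to 41). The KRAB profile was built from 75 of these same members. A domain that it missed would put a gene in the class without KRAB. Zfp330, Zfp365, Zfp703 and Zfp839 had neither by this search, and 4 members had no coding transcript. Chromosome 7 held 61 members, chromosome 17 held 29 and chromosome 13 held 18. In the gene order 123 members had another member within 3 genes, 88 of them in the KRAB class and 35 in the class without KRAB. Paralogs can share reads: 12 members had more than 10% of their 30-base words in another transcript, led by the pair Zfp764 and Zfp747 at 30.7% for Zfp764, and the pairs Zfp429 with Zfp456 and Zfp944 with Zfp942, and values of these genes are uncertain to that extent.

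Mean levels ran from 3.13 to 308 CPM with a median of 17.1 CPM, and 239 of 240 members had reads in every library. Per kilobase of transcript the highest mean levels were those of Zfp207 (77.0 CPM per kb; a kinetochore and spindle protein), Zfp281 (62.3; a promoter-binding factor studied in pluripotent cells), Zfp598 (49.9; a ubiquitin ligase that marks collided ribosomes), Zfp622 (39.4; a maturation factor of the large ribosomal subunit), Zfp330 (34.1) and Zfp91 (34.0; a ubiquitin ligase of the noncanonical NF-κB pathway). The KRAB class had a median level of 3.49 CPM per kb against 8.78 in the class without KRAB. The members together took 0.656 to 0.883% of all reads of a library. The 0 h libraries of courses 1 to 3 had a mean share of 0.871%. Without cytokines this share fell to 0.740% by 2 h, its lowest mean there, and returned to 0.858% by 6 h. The 72 h libraries without cytokines had a mean of 0.825%. With IL6 and TGFβ the means were 0.755% (2 h), 0.859% (6 h), 0.702% (48 h, the lowest) and 0.718% (72 h).

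Depth was 16 to 47.1 M reads per library (median 25.4 M). Of marker lists, 6 CD4 T cell genes (Cd4, Cd3e, Cd3g, Cd3d, Cd28 and Lck) summed to 3857 to 4211 CPM in the 0 h libraries, and all 6 were above 0 in every group. At 0 h the sums were 16 to 24.7 CPM for 2 CD8 T cell genes, 9.05 to 18.2 for 5 B cell genes, 18.6 to 25.8 for 5 myeloid genes, 6.03 to 7.91 for 4 NK cell genes and 15.2 to 35.5 for 5 genes of red cells and platelets. Those of the myeloid genes were 0.472 to 1.26 CPM and those of red cells and platelets 0.277 to 0.394 CPM at 72 h without cytokines, so these lists were lower late in culture. The CD8 T cell genes went the other way at 24 h without cytokines, with 35.7 to 44.0 CPM against 2.20 to 2.78 CPM with IL6 and TGFβ, and NK cell genes ran from 0.433 to 8.15 CPM at 72 h without cytokines. Their part in the results was not tested. The RNA is from bulk cultures, so fewer cells that hold a transcript and less of it per cell cannot be told apart, and CPM is a share of counted reads, not an amount per cell.

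The first 0.5 h of stimulation was marked by lower levels in the KRAB class. At 0.5 h without cytokines 80 members fell and 30 rose against 0 h (limma, adjusted p under 0.05), where 9.57% of all 14695 genes tested fell and 13.5% rose. In the KRAB class 54 of 129 fell and 13 rose with a median log2 change of -0.28, and in the class without KRAB 25 of 103 fell and 15 rose with a median of -0.06, against -0.01 for all genes. In courses 1, 2 and 3 the median of the KRAB class was -0.28, -0.37 and -0.18, that of the class without KRAB -0.09, -0.09 and -0.02, and that of all genes -0.01, -0.0046 and -0.01. Thus the members' median lay below that of all genes in each of the 3 courses. Without course 2 the counts were 29 lower and 18 higher, with 2.10% of all genes lower, and without course 1, 16 members were higher. Zkscan and Zscan genes, a related family with a different stem, had 8 of 19 lower and 4 higher (median -0.23), whereas 6 of 11 Klf genes rose (median 0.92), and the Zbtb family of BTB-domain zinc finger genes had 7 higher and 5 lower of 33.

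A sequence that is more frequent in the KRAB class than in all annotated promoters is shown here. It stands in the promoters of 4 KRAB members that fell at 0.5 h. They were chosen after their values were seen, as the members with the greatest falls among those whose window holds the letters ACTACANNT on either strand, which are part of the known binding sequence of ZFP143, a promoter-binding zinc finger protein that is itself a member. Windows run from 250 bases before to 50 after the start site in the RefSeq annotation of GRCm38.p6, 5′ to 3′ on the gene's strand, and capitals mark the match. Zfp94 lies at chr7:24316617-24316916 (minus strand), Zfp738 at chr13:67683463-67683762 (minus strand), Zfp606 at chr7:12478055-12478354 (plus strand) and Zfp712 at chr13:67061121-67061420 (minus strand).
Zfp94: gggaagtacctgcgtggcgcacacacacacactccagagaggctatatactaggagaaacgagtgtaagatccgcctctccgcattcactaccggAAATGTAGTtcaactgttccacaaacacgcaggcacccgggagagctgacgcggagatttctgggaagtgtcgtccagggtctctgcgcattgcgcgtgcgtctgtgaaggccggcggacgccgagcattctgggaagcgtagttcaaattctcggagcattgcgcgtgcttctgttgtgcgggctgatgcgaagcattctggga
Zfp738: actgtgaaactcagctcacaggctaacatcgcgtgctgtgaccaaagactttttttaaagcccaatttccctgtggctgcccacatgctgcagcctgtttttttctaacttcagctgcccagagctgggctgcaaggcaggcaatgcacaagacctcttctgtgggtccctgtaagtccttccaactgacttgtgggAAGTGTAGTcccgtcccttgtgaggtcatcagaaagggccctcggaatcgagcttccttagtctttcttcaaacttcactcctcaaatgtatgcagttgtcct
Zfp606: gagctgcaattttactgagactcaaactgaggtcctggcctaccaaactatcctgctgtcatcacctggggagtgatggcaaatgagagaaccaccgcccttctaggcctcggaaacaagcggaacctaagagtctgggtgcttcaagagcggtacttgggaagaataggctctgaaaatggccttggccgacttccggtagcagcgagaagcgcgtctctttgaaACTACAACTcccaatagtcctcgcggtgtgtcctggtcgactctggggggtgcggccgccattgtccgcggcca
Zfp712: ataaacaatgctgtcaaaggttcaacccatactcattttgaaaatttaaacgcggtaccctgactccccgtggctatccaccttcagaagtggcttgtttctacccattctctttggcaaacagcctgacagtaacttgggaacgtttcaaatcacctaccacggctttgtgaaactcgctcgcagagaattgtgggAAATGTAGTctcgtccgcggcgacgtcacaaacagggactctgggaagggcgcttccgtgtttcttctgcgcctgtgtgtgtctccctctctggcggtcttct

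The match begins 53 bases before the start site in Zfp738 and in Zfp712, 24 bases before it in Zfp606 and 155 bases before it in Zfp94. Zfp94 was at 7.36, 7.05 and 7.06 CPM (TMM-scaled, courses 1 to 3) at 0 h and 2.89, 3.95 and 3.91 CPM at 0.5 h, a log2 change of -0.92 ± 0.14 (SE; limma adjusted p = 1.99e-06). Zfp738 went from 14.2, 16.9 and 16 CPM to 6.87, 8.65 and 11.5 CPM (-0.79 ± 0.13, limma adjusted p = 7.33e-06). Zfp606 went from 14, 15.7 and 14.1 CPM to 6.06, 9.57 and 9.96 CPM (-0.77 ± 0.16, limma adjusted p = 3.46e-04). Every library at 0.5 h lay below every 0 h library for these genes, as it did for Zfp712 (8.84, 8.55 and 10.9 CPM at 0 h against 3.30, 6.60 and 6.94 CPM; -0.76 ± 0.19, limma adjusted p = 0.00252; not called with only the compared libraries). Zfp143 itself fell at 0.5 h, from 47.8, 54.1 and 48.9 CPM to 27.1, 35.5 and 41.8 CPM (-0.54 ± 0.11, limma adjusted p = 2.11e-04; -0.50 and not called without course 2).

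RefSeq windows were found for 199 members (245 windows) and compared with 32851 windows of all genes. The ZFP143, NRF1 and NF-κB letters were each cut to 9 after shares with longer letters had been seen, which changed their shares and which windows are printed. The ZFP143 letters stood in 20.1% of windows of the KRAB class, 9.35% of those of the class without KRAB and 4.16% of all windows. In members that fell at 0.5 h they stood in 16 of 80 windows, a share close to that of the KRAB class. The letters CCGGAAG of an ETS site stood in 24.6%, 15% and 8.86% in the same order, and CCAAT, bound by NF-Y, in 55.2%, 38.3% and 37.4%. The SP letters GGGCGGG were more frequent in the class without KRAB (49.5%) than in the KRAB class (25.4%) or all windows (25.6%), as were the NRF1 letters GCGCNTGCG (19.6% against 7.46% and 6.31%). TATAAA, the TATA box, was in 5.22% of KRAB windows and 13.6% of all windows. Letters of factors that act downstream of T cell activation or cytokines, TGANTCA of AP-1, GGGANNTTC of NF-κB and TTCCNGGAA of STAT proteins, stood in 4.08%, 6.12% and 4.08% of members' windows against 7.81%, 3.94% and 1.15% of all windows, CACGTG (E box) in 6.94% against 7.15%, AAGATGGC (YY1) in 6.12% against 2.75% and TGACGTCA (CRE) in 4.49% against 1.79%. All were searched on both strands, windows of neighbouring start sites can overlap, the ETS and STAT letters can overlap the others, and a match describes letters, not occupancy. Windows of paralogs share descent, so they are not independent of each other. All windows were not matched to the members in expression or base content. The median number of CpG per 100 bases was 4 in the KRAB class, 7.33 in the class without KRAB and 2.33 in all windows. The part of base content in the motif shares was not tested.

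**Figure D1:**
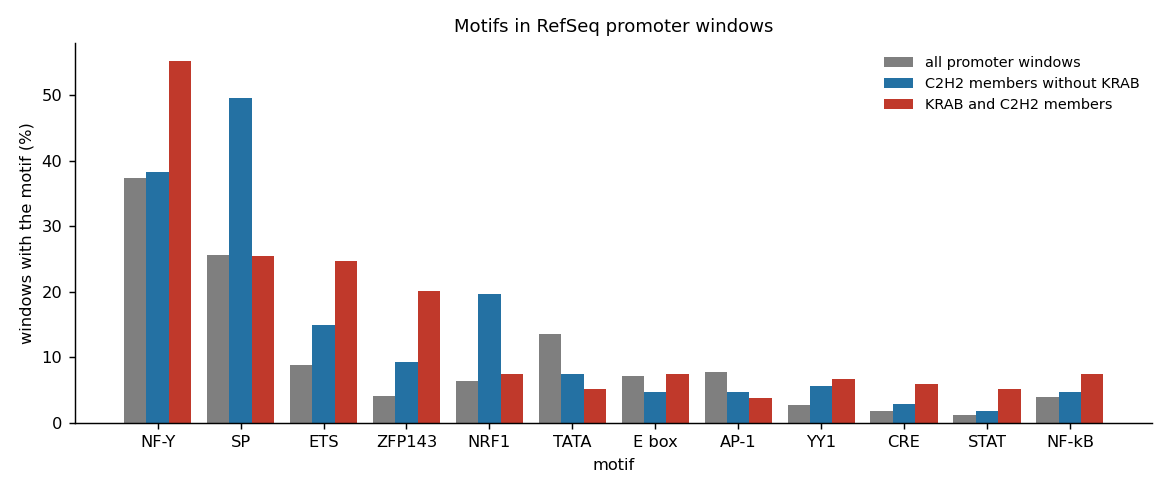
Share of RefSeq promoter windows (y axis, %) that hold each motif (x axis) among all windows, members with C2H2 fingers and no KRAB domain, and KRAB members. The ZFP143 letters stand in 20.1% of KRAB windows and 4.16% of all windows, and the SP letters in 49.5% of the windows without KRAB.

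At 2 h without cytokines more members had changed than not, with 111 lower and 75 higher than at 0 h where 36.7% of all genes fell and 32.4% rose. The KRAB class had 62 lower and 36 higher (median -0.25), and the class without KRAB 44 lower and 36 higher (median -0.10). Without TMM scaling the split was 138 lower and 46 higher, the median of all genes moved from -0.04 to -0.22 and that of the members from -0.21 to -0.45, so the members stayed below all genes on both scales. Across the 10 times without cytokines 47 members (19.6%) had their lowest mean at 1 h and 41 (17.1%) at 2 h, beside 10.9% and 13.2% of all genes. A later low point was also frequent, at 48 h in 32 members (13.3%) and at 24 h in 29 (12.1%), beside 11.1% and 8.70% of all genes. The highest mean was at 0 h in 44 members (18.3%) and at 1 h in 34 (14.2%), beside 14.3% and 15.5% of all genes. Over the times the mean of a member moved by a median of 1.39 on the log2 scale, beside 1.69 for all genes. It moved by more than 1 in 191 members (79.6%) and by more than 2 in 52 (21.7%), beside 83.4% and 38.4% of all genes. Zfp467 moved most (5.67) and Zfp191 least (0.36).

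The members named for the greatest changes, here and in the next comparisons, were picked among called changes whose libraries did not overlap between both groups, so the gap between groups is part of the choice. Zfp948, a KRAB gene of a chromosome 17 cluster, was at 2.49, 2.59 and 2.52 CPM at 0 h and 68.1, 84.8 and 85.2 CPM at 2 h (4.71 ± 0.29, limma adjusted p = 2.25e-18). At 1 h its libraries were still near the 0 h level, as the plot of single libraries shows, and by 72 h they were at 20.4, 3.96 and 4.42 CPM, course 1 standing apart. Zfp52, which lies in the same cluster, went from 11.2, 11.8 and 12.6 CPM to 72.2, 69.2 and 66.2 CPM (2.50 ± 0.20, limma adjusted p = 4.25e-15). Zfp948 shared 3.02% and Zfp52 3.53% of its 30-base words with other transcripts. Zfp516, which acts with PRDM16 in brown fat, rose from 2.25, 2.23 and 2.59 CPM to 23.9, 22.2 and 16.6 CPM (2.89 ± 0.21), Zfp593, a ribosome biogenesis factor, by 2.22 ± 0.18 to 8.98, 7.85 and 8.01 CPM, and Zfp202 by 1.82 ± 0.21. Zfp948, Zfp516 and Zfp593 (mean 1.40 CPM) were under 3 CPM at 0 h, so the rule of membership favoured their rise.

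The 5 members with the greatest falls at 2 h had 0 h means from 11.2 CPM in Zfp365 to 169 CPM in Zfp831. Zfp831 was at 182, 162 and 162 CPM at 0 h and 26.9, 20.3 and 27.7 CPM at 2 h (-2.75 ± 0.18, limma adjusted p = 8.69e-18), and at 72 h it was still at 49.2, 60.1 and 53.2 CPM. Zfp467, a zinc finger gene studied in the choice between fat and bone cells, fell from 25.5, 30.8 and 28.2 CPM to 2.72, 3.01 and 3.95 CPM (-2.95 ± 0.26). Zfp365, with a role at centrosomes, fell by 2.67 on the log2 scale at 2 h and was above its 0 h level at 72 h (54.5, 19.2 and 25.7 CPM against 11.5, 11.7 and 10.4; limma adjusted p = 2.54e-06). Zfp287 and Zfp362 each fell by 2.49 at 2 h. At 72 h Zfp362 was at 65.3, 75.4 and 75.5 CPM beside 83.7, 89.1 and 79.2 CPM at 0 h (-0.22 ± 0.13, limma adjusted p = 0.131).

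**Figure D2:**
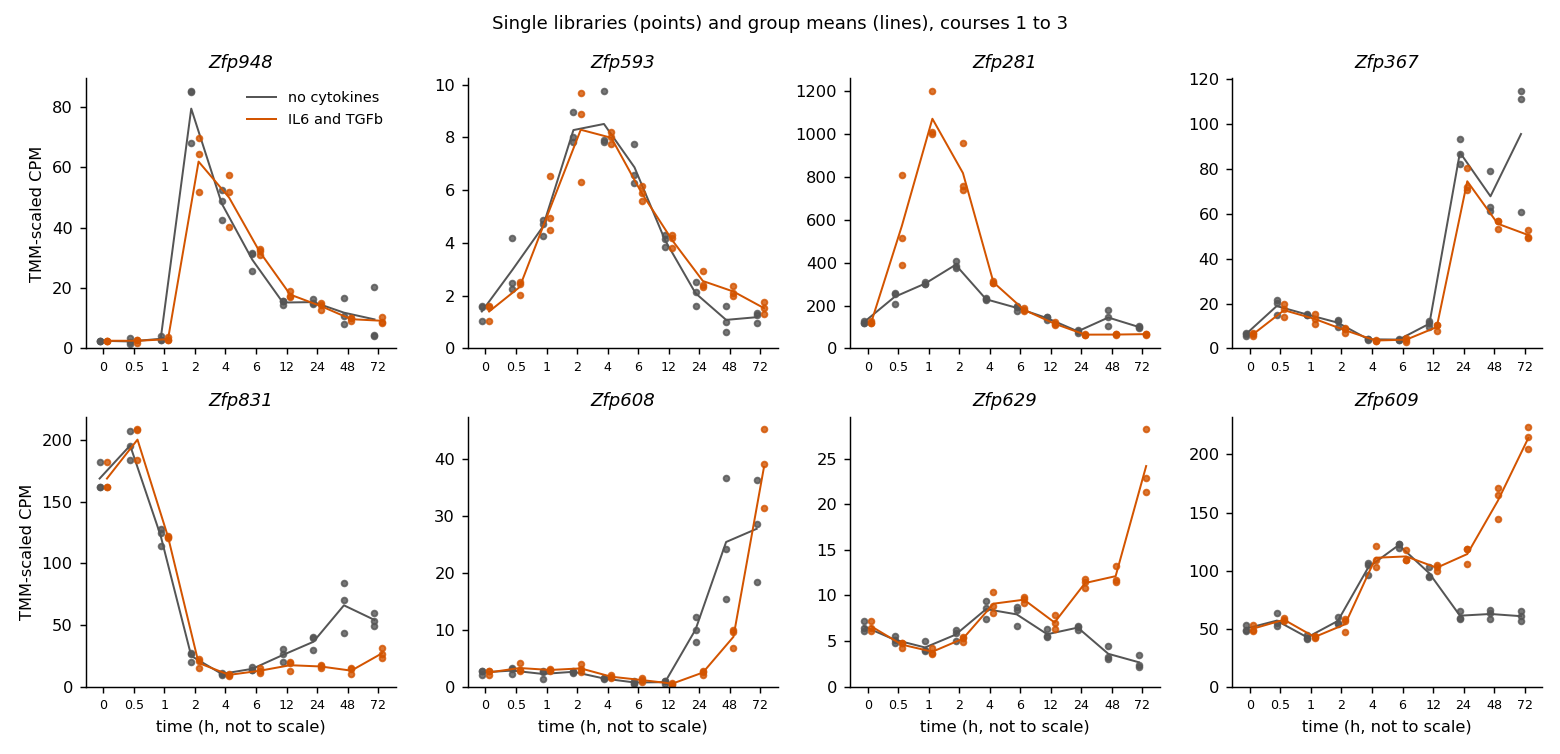
TMM-scaled CPM (y axis) of 8 members over time (x axis, h, not to scale) in single libraries of courses 1 to 3 (points) and as group means (lines), without cytokines and with IL6 and TGFβ. Zfp948 is near 2.5 CPM until 1 h and at 68.1 to 85.2 CPM at 2 h without cytokines, Zfp281 is higher with the cytokines at 1 and 2 h, and Zfp629 and Zfp609 separate from 24 h on.

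At 6 h 97 members were lower and 74 higher than at 0 h, where 37.4% of all genes fell and 35% rose, with KRAB members at a median of -0.24 and members without KRAB at 0.05. At 24 h 100 were lower and 59 higher, with 36.8% and 35.9% of all genes. Zfp367 went from 5.75, 6.57 and 7.06 CPM to 93.5, 86.5 and 82.1 CPM at 24 h (3.66 ± 0.17, limma adjusted p = 7.7e-23). Its 72 h libraries were at 60.6, 111 and 115 CPM, all above 0 h. Zfp750 (3.31 ± 0.43; a factor of epidermal differentiation), Zfp870 (2.67 ± 0.23) and Zfp239 (2.60 ± 0.24) rose from low levels, with 24 h libraries of 4.53 to 8.42, 6.92 to 8.73 and 12.6 to 17.1 CPM. Their 0 h means were 0.234, 0.772 and 2.03 CPM, under the minimum of 3 CPM. They are members only through later groups, so the rule favoured their rise. Zfp652, a partner of the ETO corepressor family, fell from 168, 169 and 167 CPM to 28.8, 23.5 and 25.5 CPM at 24 h (-2.68 ± 0.26, limma adjusted p = 2.37e-12), and Zfp945 from 22.4, 19.9 and 20.4 CPM to 2.03, 1.55 and 0.941 CPM (-3.45 ± 0.31). Zfp579 also fell, by 1.86.

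Between 2 and 24 h 96 members fell and 87 rose, with 36% and 35.8% of all genes. This split depended on the scaling: without TMM 54 fell and 124 rose, and the median of all genes moved from -0.04 to 0.24 and that of the members from -0.00043 to 0.35. Between 24 and 72 h 68 members rose and 46 fell, with 27% and 24.6% of all genes, and in the KRAB class 38 rose and 19 fell. A replicate block in the fit of only the compared libraries took away every call, although libraries of a course did not pair here. Without that block 30 rose and 7 fell. These counts rest on unlike libraries: without course 1, 72 fell, without course 2, 29 rose and 13 fell, and without course 3, 38 rose and 18 fell. In the 72 h group without cytokines course 1 stood apart from the others in several members, for example Zfp652 (13.6 against 70.6 and 65.7 CPM), Zfp945 (3.16 against 16.1 and 14.9) and Zfp750 (27.2 against 2.19 and 3.28).

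At 72 h 93 members were lower and 54 higher than at 0 h, with 32.2% and 33.2% of all genes, and without course 1 the counts were 94 and 49. Fewer were called either way with only the compared libraries and a replicate block. Without TMM scaling 73 were lower and 69 higher, the median of all genes moved from -0.01 to 0.09 and that of the members turned from -0.12 to 0.0042. Zfp608, a gene reported to act in thymocyte development, rose from 2.73, 2.71 and 2.07 CPM to 18.3, 36.2 and 28.6 CPM (3.18 ± 0.24, limma adjusted p = 1.51e-15), and Zfp760 by 1.75 ± 0.27. Zfp608 was also under 3 CPM at 0 h, so the rule of membership favoured its rise. The most even falls were those of Zfp276, from 53.1, 52.3 and 57.2 CPM to 21.3, 21.1 and 20.4 CPM (-1.35 ± 0.07, limma adjusted p = 6.27e-20), Zfp12 (-1.42 ± 0.11) and Zfp236 (-1.36 ± 0.09). Zfp652 was lower too (-2.06 ± 0.26, limma adjusted p = 3.78e-09), with the spread between courses given above, and its change was -1.30 without course 1.

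**Figure D3:**
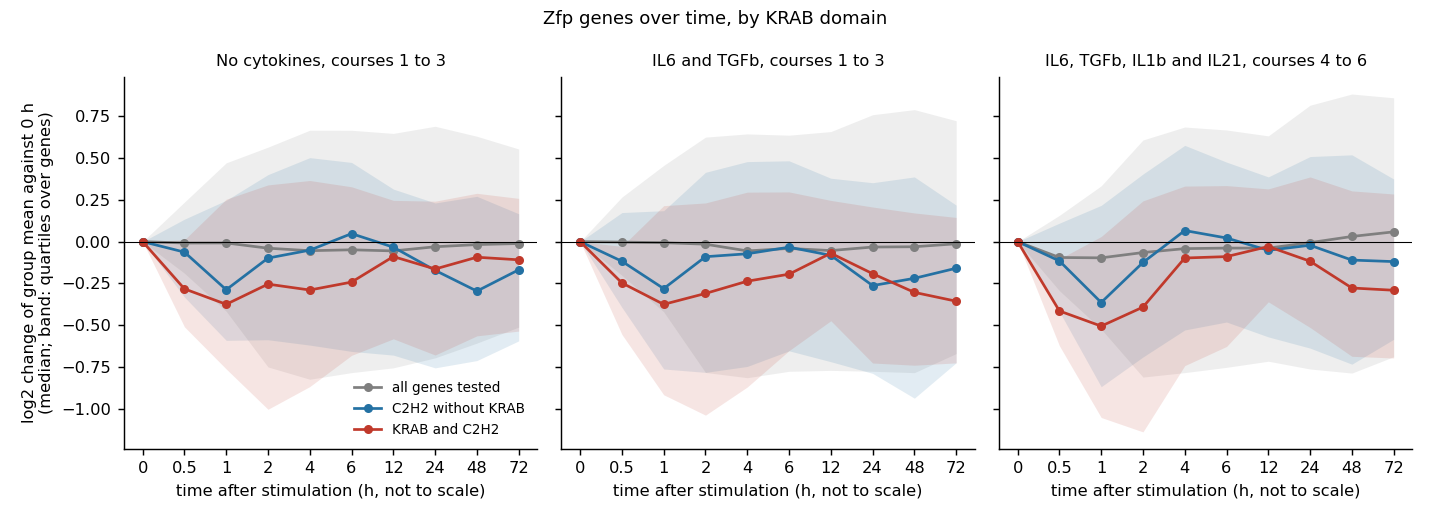
Median log2 change against the 0 h mean (y axis; bands are quartiles over genes) for KRAB members, C2H2 members without KRAB and all genes tested over time (x axis, h, not to scale), in 3 culture conditions. Without cytokines the KRAB median is -0.28 at 0.5 h and -0.37 at 1 h and then returns to -0.11 at 72 h, a time at which the median of all members turned to 0.0042 without TMM scaling.

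**Figure D4:**
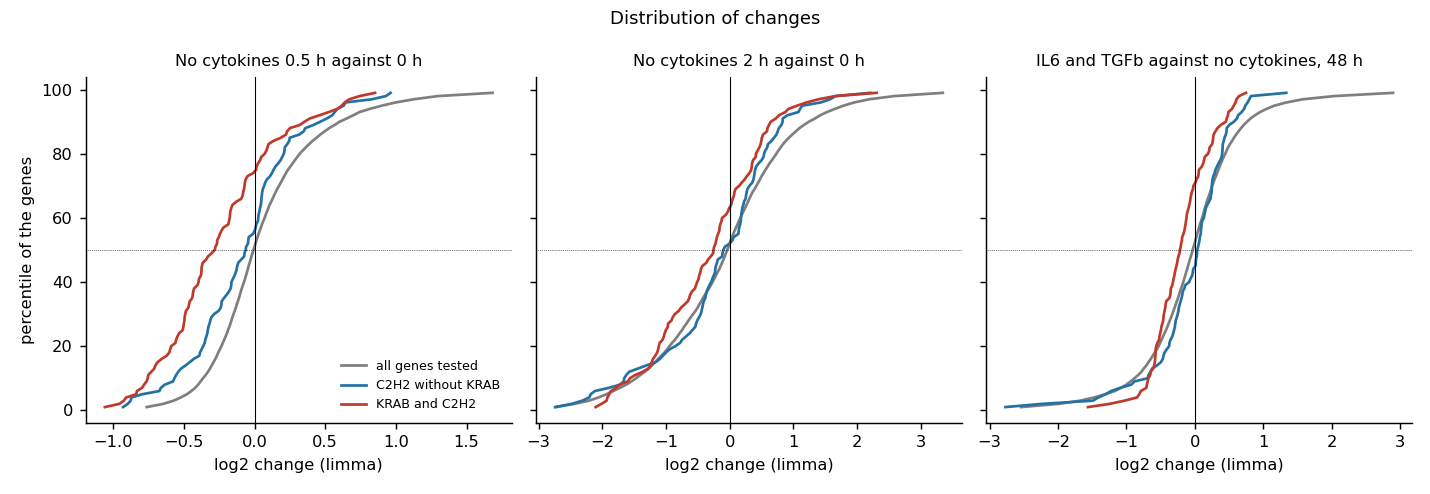
Percentile of the genes (y axis) against log2 change (x axis) for KRAB members, C2H2 members without KRAB and all genes tested, in 3 comparisons. The KRAB curve lies left of that of all genes around the middle of each panel, with medians of -0.28 at 0.5 h, -0.25 at 2 h and -0.22 with IL6 and TGFβ at 48 h.

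Neighbouring members did not all move alike. There were 12 runs of at least 4 members, holding 63 genes. At 0.5 h without cytokines the median of the run from Zfp235 to Zfp109 on chromosome 7 was lowest at -0.75. On chromosome 17 it was -0.47 from Zfp40 to Zfp946, -0.43 from Zfp871 to Zfp870 and -0.40 from Zfp54 to Zfp948. It was -0.44 from Zfp961 to Zfp882 on chromosome 8. The highest medians were 0.22 from Zfp688 to Zfp747 on chromosome 7 and -0.07 from Zfp282 to Zfp777 on chromosome 6. At 2 h the run from Zfp54 to Zfp948 spanned log2 changes from -1.14 to 4.71: 4 of its 7 genes fell while Zfp948 and Zfp52 rose. Of all genes 36.7% fell and 32.4% rose at 2 h. All 7 genes of that run carry KRAB domains. The run from Zfp40 to Zfp946 had a median of -0.89 at 2 h, with 4 of 5 genes lower and the highest, Zfp758, at -0.0047. Genes of a run can share descent and reads, though not all runs hold genes with shared words, so each run is a description of its members.

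**Figure D5:**
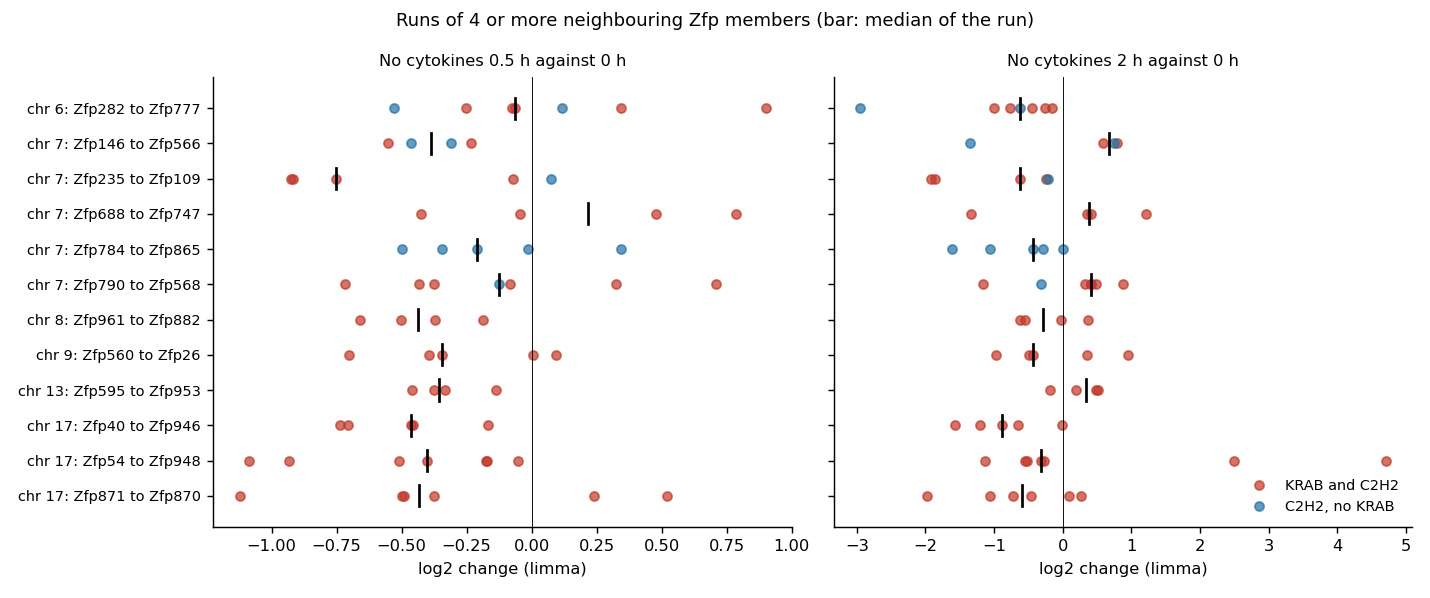
Log2 change (x axis) of each member (points, coloured by class) in the 12 runs of at least 4 neighbouring members (y axis), at 0.5 h and 2 h without cytokines against 0 h, with a bar at the run's median. Medians at 0.5 h go from 0.22 in the run from Zfp688 to Zfp747 down to -0.75 in the run from Zfp235 to Zfp109. At 2 h Zfp948 stands at 4.71 in a run whose lowest gene is at -1.14.

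In the fit of all libraries IL6 with TGFβ gave few calls in the family at 2 and 6 h and more from 24 h. Paired counts at 2 h, given below, were larger. At 1 h 19 members were higher and 38 lower without overlap between libraries, beside 9.06% and 10.7% of all genes. At 2 h 5 members were higher and 8 lower than without cytokines, where 5.59% of all genes rose and 6.84% fell. Libraries of a course paired at this time, and with only the compared libraries and a replicate block 11 members were higher and 29 lower, and without that block 5 were lower. Without course 2 the counts were 3 higher and 2 lower, and without course 3, 3 were lower. The shares of all genes given here belong to the fit of all libraries. The paired and other alternative counts have none beside them, so they do not separate the members from all genes. Zfp281 was at 409, 377 and 384 CPM without cytokines and 959, 756 and 739 CPM with them at 2 h (1.06 ± 0.14, limma adjusted p = 1.75e-07), and at 1 h the values were 299, 299 and 309 CPM against 1202, 1011 and 1000 CPM. Zfp473, which binds the machinery that processes histone mRNA, was at 1.46, 1.92 and 2.16 CPM against 10.1, 11 and 7.11 CPM (2.07 ± 0.22, limma adjusted p = 6.28e-10). Zfp1 (0.48 ± 0.11) and Zfp598 (0.36 ± 0.07) also rose, while Zfp827, which recruits the NuRD complex to telomeres, fell by 0.72 (38.3, 34.5 and 42.3 CPM against 21.7, 20.4 and 27.3; limma adjusted p = 0.00185), and Zfp382, Zfp317 and Zfp597 fell by 0.56, 0.46 and 0.32. Without course 2 the calls of Zfp1, Zfp317, Zfp382 and Zfp597 were lost, and without course 3 those of Zfp597 and Zfp827.

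At 6 h limma called 0 members higher and 0 lower, with 2.85% and 1.76% of all genes called. At an unadjusted p under 0.05 there were 14 members, edgeR called 0 and DESeq2 called 1 higher. Some unchanged genes also reach an unadjusted p under 0.05, and the share of all genes is not given. The 14 members are therefore not read as changed. With only the compared libraries the counts were 8 higher and 6 lower. A replicate block in that fit raised both counts, although libraries of a course did not pair at 6 h.

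At 24 h 25 members were higher and 38 lower with IL6 and TGFβ, with 13.5% and 12.6% of all genes. Without course 2 the counts were 11 and 17, and without course 3, 12 and 24. With only the compared libraries 38 were higher. A replicate block in that fit left more members called either way than the fit of all libraries, although courses did not pair. None of these alternative counts has a share of all genes beside it, so they do not separate the members from all genes. The summed CD8 T cell genes differed between these groups, as given above. Zfp944, whose reads can be shared with Zfp942, was at 7.88, 8.51 and 7.78 CPM against 20.9, 23.5 and 23.2 CPM (1.43 ± 0.12, limma adjusted p = 6.6e-13). Zfp609, which binds the cohesin loader NIPBL, was at 58.4, 65.6 and 59.5 CPM against 119, 106 and 118 CPM (0.90 ± 0.08, limma adjusted p = 6.7e-13), and its paralog Zfp608 went the other way, at 10.0, 12.3 and 7.78 CPM against 2.83, 2.60 and 2.02 CPM (-1.81 ± 0.24, limma adjusted p = 5.44e-08). Zfp395 was at 47.1, 32.7 and 46.0 CPM against 12.3, 10.7 and 10.6 CPM (-1.84 ± 0.21). Zfp667 and Zfp28 rose by 0.89 ± 0.19 and 0.88 ± 0.16, and Zfp3 and Zfp710 fell by 1.16 and 1.12.

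At 48 h 47 members were higher and 88 lower, with 27.6% and 25.4% of all genes. The KRAB class had 56 lower and 17 higher (median -0.22), and the class without KRAB 29 lower and 30 higher (median 0.03). Without TMM scaling the split was 117 lower and 27 higher, with the median of all genes at -0.15 in place of -0.03 and that of the members at -0.28 in place of -0.14. Without course 2 the counts were 51 lower and 19 higher, and without course 3, 55 lower and 29 higher. Shares of all genes are not given beside these counts, so they do not separate the members from all genes. With only the compared libraries 24 were higher. A replicate block in that fit left fewer members called either way than the fit of all libraries, although courses did not pair.

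At 72 h 32 members were higher and 84 lower, with 22.7% and 23.6% of all genes, and the KRAB class had 52 lower and 15 higher (median -0.22) against 30 lower and 16 higher in the class without KRAB (median -0.01). Without TMM scaling 101 were lower and 21 higher. Without course 1, 61 were higher; without course 2 the counts were 18 higher and 43 lower, and without course 3, 21 and 50. With only the compared libraries they were 12 higher and 31 lower. A replicate block in that fit left only a few members called either way, although courses did not pair at 72 h. The alternative counts at 72 h have no shares of all genes beside them, so they do not separate the members from all genes. Zfp629 was at 3.50, 2.33 and 2.21 CPM without cytokines and 28.3, 22.9 and 21.4 CPM with them (2.97 ± 0.13, limma adjusted p = 5.93e-23). Zfp609 was at 56.2, 65.2 and 60.8 CPM against 204, 223 and 215 CPM (1.81 ± 0.08, limma adjusted p = 1.8e-23), and Zfp516 at 5.06, 2.01 and 1.82 CPM against 15.5, 14.2 and 12.4 CPM (2.18 ± 0.21, limma adjusted p = 6.77e-12). Zfp473 rose by 1.34 ± 0.22, and Zfp467 (44.4, 20.6 and 20.9 CPM against 11.1, 6.30 and 7.81 CPM), Zfp760, Zfp831 and Zfp365 fell by 1.65, 1.02, 1.00 and 0.99. Zfp467 and Zfp365 had course 1 apart from the other libraries without cytokines, and without course 1 the change of Zfp365 was -0.23 and no longer called, as was that of Zfp760 without course 2 (-0.90).

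The effect of IL6 and TGFβ at 72 h differed from that at 2 h in 62 members (21 with a more positive and 41 with a more negative effect late, where 19.5% and 15.7% of all genes passed). Without TMM scaling the counts were 15 and 59. Without course 1, 48 were more positive, without course 2 the counts were 10 and 11, and without course 3, 10 and 18. With only the compared libraries they were 12 and 16. These alternative counts have no shares of all genes beside them either. Zfp281 was higher with the cytokines at 2 h and lower at 72 h (106, 95.4 and 98.0 CPM without against 67.8, 62.5 and 69.5 CPM with them; -0.58 ± 0.14, limma adjusted p = 0.000655), and the fall at 72 h was -0.57 and not called without course 2.

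Courses 4 to 6 had their own 0 h libraries, so their comparisons with 0 h share none with courses 1 to 3. With IL6, TGFβ, IL1β and IL21 at 2 h 120 members were lower and 74 higher than at 0 h, with 39.6% and 34.3% of all 14859 genes tested, and without TMM scaling 157 and 45. At 24 h the counts were 104 and 82, with 39.2% and 40.5%, and at 72 h 119 and 73, with 37.9% and 43.5%. The KRAB class had 70 of 129 lower at 2 h (median -0.39) and 72 lower at 72 h (median -0.29). At 2 h 102 members were lower both here and without cytokines in courses 1 to 3, which is 91.9% of the 111 there and 85% of the 120 here. Over all 14377 genes tested in both sets the shares were 89.7% and 82.6%. The 64 higher in both at 2 h were 85.3% and 86.5% of their lists, beside 87.2% and 82.0% for all genes. At 24 h the 53 higher in both were 89.8% and 64.6% (all genes 89.7% and 77.9%) and the 84 lower in both 84% and 80.8% (84.2% and 79.8%). At 72 h the 81 lower in both were 87.1% and 68.1% (78.1% and 67.3%), and the 43 higher in both were 79.6% and 58.9% (88.4% and 66.3%). These comparisons differ in cytokines as well as courses.

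Named members moved in courses 4 to 6 as follows. Zfp281 went from 110, 111 and 102 CPM at 0 h to 957, 1055 and 1047 CPM at 2 h of all 4 cytokines (3.24 ± 0.10) and was at 69.8, 72.5 and 73.2 CPM at 72 h (-0.58 ± 0.10). Zfp948 went from 2.15, 2.59 and 2.38 CPM to 81.0, 36.8 and 50.5 CPM at 2 h (4.23 ± 0.21), course 4 being highest. Zfp831 fell from 161, 156 and 160 CPM to 14.1, 17 and 13.6 CPM at 2 h (-3.38 ± 0.11). In each of these the libraries at 2 h were apart from those at 0 h. At 72 h Zfp609 was at 203, 201 and 204 CPM beside 46.9, 52.1 and 46.5 CPM at 0 h (2.05 ± 0.07), and Zfp629 at 25.8, 16.3 and 17.9 CPM beside 5.91, 7.12 and 6.02 CPM (1.56 ± 0.15).

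The added cytokines separated few members from each other late, as means over 24, 48 and 72 h. IL1β against IL21, each on IL6 and TGFβ, gave 3 members higher and 17 lower, with 4.55% and 6.88% of all genes. Libraries of a course paired, and with only the compared libraries and a replicate block 6 were higher, and without that block 1 was higher and 4 were lower. This rests on few courses: without course 4, 11 were lower, without course 5, 4 were lower, and without course 6 limma called 0 in both directions (22 members at an unadjusted p under 0.05). Only the counts of the fit of all libraries have shares of all genes beside them, and the unadjusted count is not read as a change. Zfp652 averaged 44.1, 35.0 and 32.4 CPM in courses 4 to 6 with IL1β, 54.0, 44.1 and 46.8 CPM with IL21 and 46.5, 33.7 and 38.3 CPM with both (IL1β against IL21, -0.37 ± 0.07, limma adjusted p = 0.000206). Within each course Zfp652 was lower with IL1β than with IL21, and the courses overlap. Zfp28 (-0.33 ± 0.11, limma adjusted p = 0.0456; -0.19 and not called without course 4) was also lower, and Zfp827 (0.25 ± 0.07, limma adjusted p = 0.00521) and Zfp296, a factor of reprogramming (0.35 ± 0.11, limma adjusted p = 0.021; 0.27 and not called without course 4), were higher.

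Both cytokines against IL21 alone gave 3 members lower and limma called 0 higher, with 3.64% and 3.14% of all genes (23 members at an unadjusted p under 0.05; edgeR and DESeq2 gave the same counts). Paired by course with only the compared libraries, 8 were lower and 3 higher, and unpaired 1 was lower. Without course 5 or course 6 limma called 0 lower (13 and 9 members at an unadjusted p under 0.05). Counts at an unadjusted p in these comparisons are not set beside all genes and are not read as changes. Zfp652 (-0.29 ± 0.07, limma adjusted p = 0.00749) and Zfp260 (-0.20 ± 0.06, limma adjusted p = 0.0333) were among the 3. Both cytokines against IL1β alone gave 0 higher and 0 lower by limma, with 0% of all genes called either way (3 members at an unadjusted p under 0.05, 3 by edgeR and 1 by DESeq2, with 0 called by either tool after adjustment).

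Counts of members by role stand beside the 32.4% of all genes that rose and the 36.7% that fell at 2 h without cytokines, and the roles were not compared by a test. Of 9 members that act on RNA, ribosomes or cell division, 7 rose at 2 h (median 0.43). Without TMM scaling 4 rose and 1 fell. Zfp207 rose from 142, 132 and 164 CPM to 233, 246 and 259 CPM (0.76 ± 0.12), Zfp598 from 132, 126 and 132 CPM to 197, 196 and 200 CPM (0.60 ± 0.07) and Zfp830 from 20.5, 18.5 and 20.5 CPM to 35.4, 28.8 and 33.9 CPM (0.70 ± 0.09), all without overlap. Zfp106 (0.40 ± 0.08), Zfp346, which binds double-stranded RNA (0.43 ± 0.09), Zfp622 (0.35 ± 0.10) and Zfp593 rose too, and the calls of Zfp106, Zfp346 and Zfp622 were lost without TMM scaling. The other two, Zfp326 and Zfp638, were at 0.27 and -0.19 (limma adjusted p = 0.113 and 0.0651). Of 14 members that act at promoters, enhancers and in chromatin complexes, 7 rose and 5 fell at 2 h, or 4 and 6 without TMM scaling, and the greatest fall was that of Zfp217, a partner of corepressor complexes, from 170, 186 and 172 CPM to 43.6, 37.4 and 34.3 CPM (-2.19 ± 0.18, limma adjusted p = 1.44e-14). Zfp335, which T cells need to mature in the thymus, fell by 0.23, a call lost without course 2 or course 3, and Zfp410, an activator of Chd4, rose by 0.38 ± 0.10, a call lost without TMM scaling. Of 4 members in signalling and lymphocytes, Zfp451, a SUMO ligase, and Zfp91 rose at 2 h by 0.57 ± 0.09 and 0.29 ± 0.08, and the call of Zfp91 was lost without TMM scaling. The others of this list were not called, Zfp318 at 0.14 ± 0.16 (54.5, 48.3 and 41.3 CPM against 44.6, 53.3 and 60.9; limma adjusted p = 0.468) and Zfp608 at 0.06 ± 0.24 (limma adjusted p = 0.852).

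Of 4 members known to silence retroelements or imprints, 3 rose at 2 h without cytokines, where 32.4% of all genes rose, and 2 rose and 1 fell without TMM scaling. Zfp445, which maintains imprints, rose from 68.6, 61.1 and 69.6 CPM to 107, 105 and 117 CPM (0.72 ± 0.08, limma adjusted p = 4.45e-10), Zfp809, which silences retroviral primer binding sites, from 15.9, 16.8 and 19.3 CPM to 21.3, 24.1 and 26.3 CPM (0.45 ± 0.09), and Zfp568, which represses a placental Igf2 transcript, by 0.49 ± 0.16, a call lost without TMM scaling or without course 3. Zfp932, which acts on retroelements, was at -0.15 (limma adjusted p = 0.236; -0.38 and called without TMM scaling). These 4 were not compared with the rest of the class by a test. With IL6 and TGFβ at 72 h Zfp932, Zfp445 and Zfp809 were lower than without cytokines by 0.81, 0.48 and 0.28, and Zfp568 was at 0.07 (limma adjusted p = 0.761), where 23.6% of all genes fell. The call of Zfp809 was lost without course 2 or course 3.

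A list of 27 tested genes held Trim28, Setdb1 and other genes of silencing, heterochromatin and DNA methylation. A place in this list does not mean that KRAB proteins recruit the product. At 24 h 17 rose and 7 fell (median 0.73), where 35.9% of all genes rose and 36.8% fell. At 2 h 12 rose and 9 fell, with 32.4% and 36.7% of all genes, and without TMM scaling 8 rose and 11 fell. At 0.5 h 3 rose and 7 fell, with 13.5% and 9.57% of all genes. Those that fell at 0.5 h numbered 14 without TMM scaling, 2 without course 2 and 15 without course 3. Trim28 was at 0.09 ± 0.06 at 0.5 h (limma adjusted p = 0.305), rose by 0.31 ± 0.06 at 2 h (limma adjusted p = 2.48e-05) and by 1.1 ± 0.06 at 24 h (limma adjusted p = 1.5e-19). Dnmt1 and Uhrf1, which maintain DNA methylation at replication, rose at 24 h by 2.17 ± 0.12 and 5.95 ± 0.28. Setdb1 rose at 24 h by 0.46 ± 0.07. Of the 7 genes that fell at 24 h, Chd3 (-2.34 ± 0.22), Atf7ip (-1.66 ± 0.11) and Daxx (-1.08 ± 0.10) fell most. Suv39h2, a histone H3 methyltransferase, rose at 0.5 h by 1.70 ± 0.16, and Ehmt2 (G9a) fell at 2 h by 2.36. With IL6 and TGFβ at 72 h 11 of the 27 fell and 1 rose, where 23.6% of all genes fell and 22.7% rose, and 3 fell without course 2 and 4 without course 3.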

How the data were processed

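The deposited values are CPM (every column sums to 1000000) for RNA from 141 libraries. TopHat, HTSeq, mm9 and GRCh37 (a human build) stand in the submitters' processing notes, where versions and roles are absent from the sources used here. Alignment and counting settings, which decide how reads of paralogs are dropped or shared, were likewise absent there. The values were whole multiples of 1 read for 100% of entries (tolerance 0.001), 1 read being 0.0212 to 0.0627 CPM. Members and lists were chosen with earlier results of these data known. Named members were the greatest called changes without overlap between groups, those with the highest mean, those next to the minimum, and role lists.

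CPM was scaled by TMM factors (edgeR 4.0.16), 0.5 was added and log2 taken, and limma-trend (limma 3.58.1, R 4.3.3) was fitted separately to courses 1 to 3 (38 residual degrees of freedom) and courses 4 to 6 (56). A gene was tested where 3 or more libraries reached 1 CPM, a filter all 240 members passed, with Benjamini-Hochberg adjustment over all genes, and errors of fold changes are standard errors of that pooled fit. The log2 of CPM plus 0.5 understates changes near 1 CPM. Adjusted p values set each change against the spread of these libraries within groups, pooled over all groups of a fit. The standard error of a gene is therefore the same in even and in scattered groups. Alternatives were no TMM scaling, DESeq2 size factors, other pseudocounts (0.1 and 2), no filter, edgeR and DESeq2 (1.42.0) on recovered reads, each course left out, only the libraries compared, and a replicate block. A count from an alternative without a value for all genes beside it does not separate the members from all genes. The same holds for counts at an unadjusted p under 0.05, which some unchanged genes also reach. The fit was tested on simulated data.

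KRAB domains and fingers were found in translated GENCODE M21 transcripts, since no protein table was used here, with a KRAB profile and a C2H2 pattern. Libraries of a course paired (correlation of deviations over 0.1 in all 3 courses) for IL6 and TGFβ at 1 h (lowest 0.388) and 2 h (lowest 0.405), for all 4 cytokines at 2 h against 0 h (lowest 0.121) and for the late cocktail comparisons (lowest 0.455). They did not for IL6 and TGFβ at 6, 24, 48 and 72 h, nor from 24 to 72 h without cytokines.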

Additional observations from a re-analysis of the deposited data

Results flagged for a closer look

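In 3 members the effect of IL6 and TGFβ at 72 h differed from that at 2 h by a test of the difference itself and had the opposite sign with both effects called (limma interaction, log2 scale). The share of all genes that met this rule is not given, so the count says nothing particular to the family. Called effects of opposite sign were part of the choice, so the p values below are not separate support. Zfp281 differed by -1.641 (limma adjusted p = 6.27e-09), being higher with the cytokines at 2 h and lower at 72 h. Zfp358 differed by 1.659 (limma adjusted p = 7.89e-08): at 2 h it was at 2.77, 2.70 and 2.32 CPM without and 1.80, 2.02 and 1.43 CPM with the cytokines, and at 72 h at 7.42, 8.26 and 8.12 CPM against 19.4, 19.9 and 17.2 CPM. Zfp667, a KRAB gene, differed by 1.976 (limma adjusted p = 5.43e-08): at 2 h it was at 4.32, 2.86 and 4.22 CPM against 2.85, 1.73 and 2.06 CPM, and at 72 h at 7.19, 3.18 and 2.79 CPM against 10.2, 11.7 and 10.4 CPM, with course 1 apart without cytokines. Zfp358 and Zfp667 were at low levels at 2 h. Most calls of lower members at 2 h were lost without course 2 or course 3, as the counts above show, so both early effects are less certain.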

How the results depend on the processing

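Counts of members called are given as higher and lower. With a mean of at least 10 CPM 159 genes were members. A replicate block in the fit of all libraries moved no count by over 1.5 times (for example 82 in place of 80 lower at 0.5 h), and edgeR moved none. Without TMM scaling counts were 46 higher at 2 h without cytokines, 54 lower from 2 to 24 h, 1 higher at 6 h, 27 higher at 48 h and 21 higher at 72 h with IL6 and TGFβ, 45 higher with all 4 cytokines at 2 h, and 11 lower for IL1β and 5 lower for both cytokines against IL21. DESeq2, and its size factors in limma, each gave 1 higher at 6 h with IL6 and TGFβ, and a pseudocount of 2 gave 1 higher for both cytokines against IL21. Without the low-value filter 43 were higher from 24 to 72 h, 24 had a more negative late effect, IL1β against IL21 gave 1 and 8, and both against IL21 gave 1 lower. With only the libraries compared, IL6 and TGFβ gave 5 lower at 2 h, 8 with 6 at 6 h, 38 higher at 24 h, 24 higher at 48 h and 12 with 31 at 72 h, the difference of effects 12 and 16, 24 to 72 h 30 and 7, IL1β against IL21 1 and 4, and both against IL21 1 lower. With only the libraries compared and a replicate block (added after seeing the data), no cytokines at 72 h against 0 h gave 25 and 47, 24 to 72 h 0 and 0 (46 members at an unadjusted p under 0.05), IL6 and TGFβ 11 higher with 29 lower at 2 h, 19 with 11 at 6 h, 47 with 62 at 24 h, 11 with 46 at 48 h and 4 with 3 at 72 h, the difference of effects 11 and 14, IL1β against IL21 6 higher, and both against IL21 3 and 8. These smaller fits also test fewer genes, and beyond that the cause was not tested. Leaving out each course gave 16 to 22 higher and 29 to 104 lower at 0.5 h, and for IL6 and TGFβ 3 to 5 and 2 to 7 at 2 h, 0 to 1 higher at 6 h, 11 to 21 and 17 to 33 at 24 h, 19 to 59 and 51 to 90 at 48 h and 18 to 61 and 43 to 82 at 72 h. It gave 29 to 71 and 13 to 72 from 24 to 72 h, 10 to 48 and 11 to 53 for the difference of effects, 0 to 3 and 0 to 11 for IL1β against IL21, and 0 to 1 and 0 to 2 for both against IL21. Of 111 printed changes of single members, 1 that was called turned its sign, Zfp609 at 2 h without cytokines (-0.0689 without TMM scaling). Of those not called, at 2 h without cytokines Zfp318 (-0.107), Zfp592 (-0.203) and Zfp608 (-0.148) turned without TMM scaling, and Zfp219 (0.0802) and Zfp932 (0.0247) without the low-value filter. Leaving out each course gave -0.0829 to 0.328 for Zfp318, -0.00696 to 0.158 for Zfp592, -0.00430 to 0.145 for Zfp608 and -0.335 to 0.0148 for Zfp638. Zfp568 with IL6 and TGFβ at 72 h was at -0.0232 without TMM scaling and at -0.0768 to 0.391 on leaving out each course. At 16 to 47.1 M reads depth limits members near 1 CPM, such as Zfp750 at 0 h (0.201 to 0.259 CPM), more than the others.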
